A study of Drosophila melanogaster with 4 samples.

Results

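The peaks of GFP-tagged Lola-PJ on the 2 arms of Drosophila chromosome 3 are the subject here. All peaks that the authors placed on 3L or 3R in release 5 of the FlyBase genome were taken, whatever their score, and those on the heterochromatin scaffolds 3LHet and 3RHet were left out. That gave 381 peaks, 198 on 3L and 183 on 3R, out of 5954 in the list. They made up 32.9% of the 1157 peaks on the main chromosome arms (95% Clopper-Pearson interval 30.2 to 35.7%).

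The study set 2 immunoprecipitates, pulled down with the rabbit GFP antibody ab290, against 2 input DNA libraries from the same kind of embryo. The strain was lola-RJ-GFP in all 4 libraries, with the genotype PBac{y[+]-attP-3B}VK00033 and a transgene covering the lola-RJ genomic coding region, at 0 to 12 h of development. Embryos were fixed in 1.8% formaldehyde for 15 min. The protocol names y; bw cn sp flies for the egg collection, and the labels do not state whether the native lola gene was intact. Whole embryos of mixed age and cell type were used, and no pull-down from untagged embryos is among the samples, so Lola-PJ binding and tag-independent pull-down cannot be told apart. The files give no reads per library, so depth is unknown. With 1 peak list for the whole series, the intervals given cover counting error alone and say nothing of the spread between libraries. They also take peaks as independent, so they are too narrow where peaks cluster.

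Lola (longitudinals lacking) encodes a large set of transcription factors that share a BTB domain, through which such proteins pair, and that end in different zinc fingers, which read DNA. Alternative splicing produces the set, and PJ is one of its proteins. The gene is best known for guiding axons in the embryonic nervous system, and it also acts in neurons, eye and germline. Chromosome 3 is one of the large autosomes of the fly. Its right arm carries the Antennapedia and bithorax complexes, the homeotic gene groups that set segment identity along the body. The VK00033 landing site, where the tagged lola transgene was inserted, lies on 3L, while the native lola gene lies on another chromosome.

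Most of the strongest chromosome 3 peaks were broad. The highest score, 198.16, belonged to a 1371 bp peak at 3L positions 16045234 to 16046604. Scores are the authors' value for each peak and behave as −log10 p-values, so larger is stronger. Many of them equal −log10 of the Poisson tail probability of a whole number of overlapping fragments over 1 mean. That mean, 49.15 fragments, is stated nowhere and was picked as the one that most scores of the whole list match. Scores that match that series within 0.01 are described as lying at the fixed background. For such peaks, the fragment number read back from the score, divided by the mean, gives a fold over background. At 3L 16045234 to 16046604 the score corresponded to 382 fragments, or 7.77-fold, and the nearest other peak was 27.3 kb away.

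The next score was 86.67, at 3R positions 14446740 to 14447706. This peak of 967 bp stood at 4.94-fold over background, and its nearest neighbour was 304 kb away, the most isolated of the 10 strongest. The third, on 3L at 5532982 to 5534820, scored 83.89 at 4.86-fold and was the main member of a group of 3 peaks. The fourth lay on the same arm at 5313200 to 5314591 with a score of 80.8. Its score was not at the fixed background, so no fold is given for it or for the others of that kind.

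The remaining 6 of the 10 strongest scored from 54.86 to 74.87. On 3L they were at 3380022 to 3382047 (score 74.87) and at 8412159 to 8413602 (score 54.86). On 3R they were at 19132101 to 19133366 (score 71.77, 4.50-fold), 25574970 to 25575664 (62.98), 10425663 to 10427117 (59.38) and 2785985 to 2787196 (56.79). The arms shared the 10 evenly, 5 each. Of the 10, 8 were at least 1000 bp wide, 4 were at the fixed background and 3 had a neighbour within 2 kb. Over all 381 peaks these shares were 13.9%, 42.8% and 37.3%. Width and score rose together across the 381, as given below, so a choice by score favours wide peaks. Over the whole chromosome 12 of the 381 peaks scored 50 or more and 91 scored 20 or more.

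**Figure D1:**
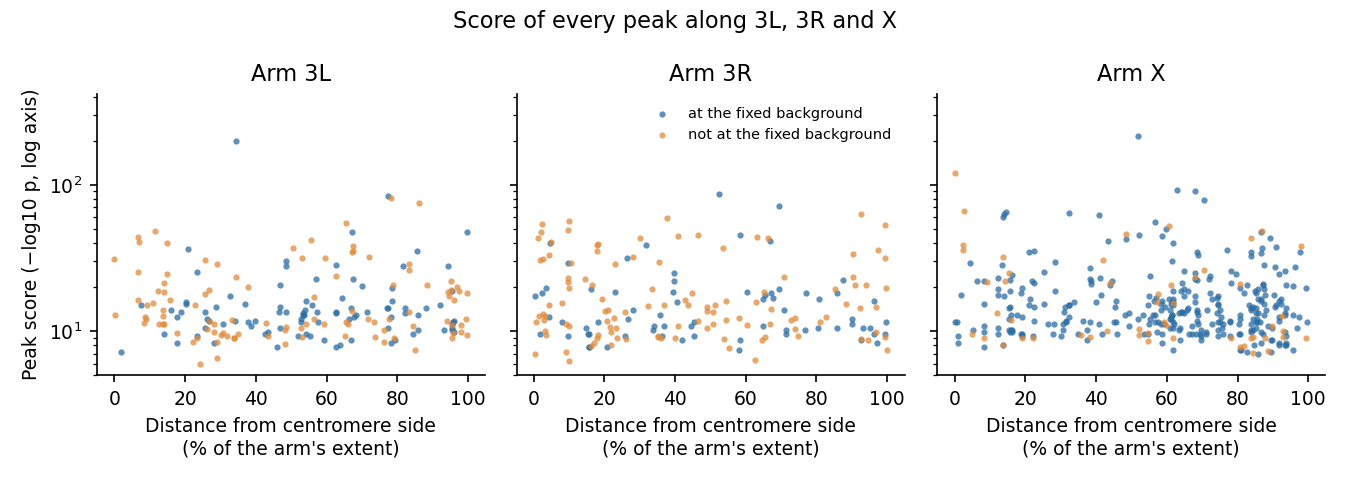
Score of every peak (−log10 p, log axis) against its distance from the centromere side of the arm, as a percentage of the arm's extent, for 3L, 3R and X. Blue points are at the fixed background and orange points are not. One 3L peak at 198.16 stands far above the other 380 chromosome 3 peaks, and orange points are common on 3L and 3R and rare on X.

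The typical chromosome 3 peak was far weaker than these. The median score was 12.87, with quartiles of 10.19 and 19.78, and the lowest score was 6.01. Peaks at the fixed background had a median of 2.20-fold, with quartiles of 2.03 and 2.44, and the weakest of them stood at 1.83-fold. The strongest of them reached 7.77-fold on 3L and 4.94-fold on 3R.

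Widths ran from 201 to 2898 bp with a median of 385 bp and quartiles of 253 and 670 bp. The lower end was sharp: 12 peaks were exactly 201 bp wide, none was narrower, and 138 of 381 (36.2%) were under 300 bp. At the upper end 53 peaks (13.9%) reached 1000 bp and 8 reached 2000 bp. The widest was the 2898 bp peak at 3L 17376976 to 17379873, with a moderate score of 28.58 and another peak 83 bp away. It was followed by 2690 bp at 3R 12853631 to 12856320 (score 45.74), 2562 bp at 3L 8013160 to 8015721 (47.75), 2448 bp at 3R 27402668 to 27405115 (31.63) and 2109 bp at 3R 17435017 to 17437125 (43.68). None of these 5 was among the 10 highest scores.

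Width and score rose together across peaks all the same, with Spearman's rho of 0.74 over 381 peaks, 0.72 on 3L and 0.75 on 3R. These are descriptions across peaks of 1 list, which share their libraries and their caller, and the caller's width and score are both set by the same fragment overlap. On X rho was 0.73 over 356 peaks.

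**Figure D2:**
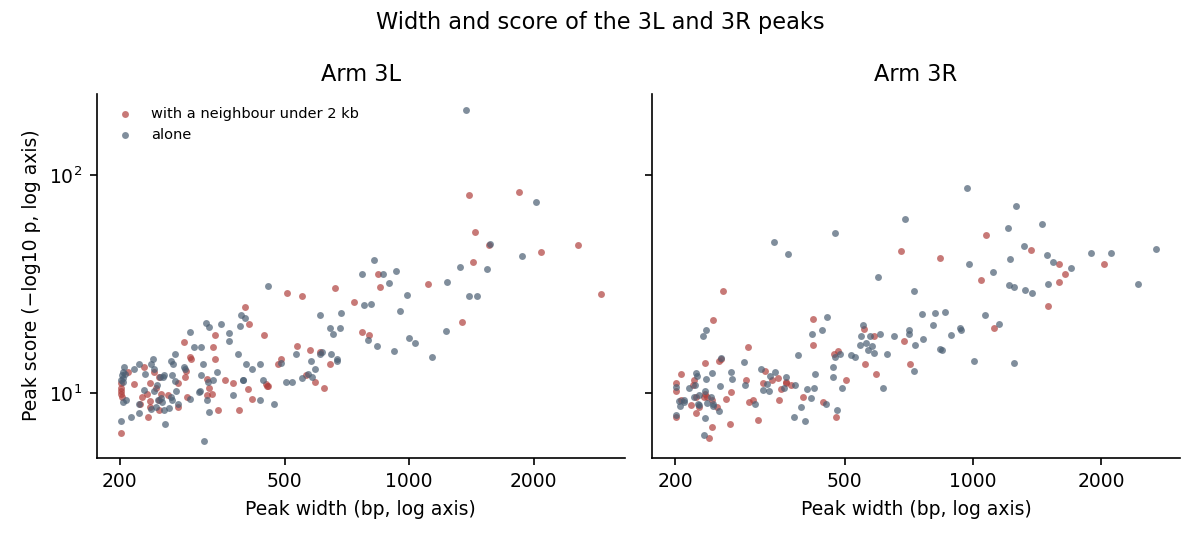
Width (bp, log axis) against score (−log10 p, log axis) for the 198 peaks of 3L and the 183 of 3R, with peaks that have a neighbour within 2 kb in red and solitary peaks in grey. Points rise from the lower left on both arms, start abruptly at 201 bp, and the red points lie among the grey ones over most of the range.

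Per annotated gene, 3L carried more peaks than 3R. The 198 peaks of 3L came to 5.69 per 100 genes and the 183 of 3R to 4.33, with 3482 and 4226 genes in the release 6 table. The ratio was 1.31 (95% interval 1.07 to 1.61; exact binomial test, adjusted p = 0.0247). Adjusted values are by the Benjamini-Hochberg method over 12 tests. Neighbouring peaks are not independent, so p-values over peaks are too small and intervals too narrow. With 1 peak kept per group of close neighbours the ratio was 1.26 and no longer passed (adjusted p = 0.0874, exact binomial test), and per base pair of arm it was 1.22 (adjusted p = 0.107, exact binomial test). The call was lost in 5 of 8 alternatives. The 3 that kept it used protein-coding genes (1.34), only peaks at the fixed background (1.65), or peaks away from the arm ends (1.44). The last left out 1 Mb at both ends of each arm, and so the 17 peaks of the first megabase of 3R. It kept all genes in the count, so it is not a rate over the shortened arm.

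Both arms of chromosome 3 were sparse beside X. Together they held 4.94 peaks per 100 genes, against 13.2 on X, a ratio of 0.38 (0.32 to 0.44; exact binomial test, adjusted p = 2.7e-37). The X excess was already known from earlier results of these data, so this p-value is a description and not a fresh test. By length the densities were 8.10 peaks per Mb on 3L and 6.63 on 3R, against 15.9 on X, measuring each arm to the end of its last peak. Peaks covered 106 kb or 0.43% of 3L and 109 kb or 0.39% of 3R, against 203 kb or 0.91% of X. The direction turned among peaks not at the fixed background, where chromosome 3 held 2.83 per 100 genes and X 1.92, a ratio of 1.47 that did not pass (adjusted p = 0.0737, exact binomial test).

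Along the arms the peaks were uneven. In complete windows of 1 Mb, 3L held 8.17 ± 3.93 peaks (SD, n = 24 windows) and 3R held 6.52 ± 3.67 (SD, n = 27 windows), against 15.9 ± 8.66 on X (SD, n = 22 windows). The variance of the window counts was 1.89 times their mean on 3L and 2.07 times on 3R, against 4.72 times on X. A value of 1 would be that of independent peaks at an even rate. At equal relative spread this ratio rises with the mean, and X has more peaks per window. Density and unevenness therefore cannot be told apart by it between X and chromosome 3. Windows with 10 or more peaks numbered 10 on 3L and 3 on 3R. Windows with 3 or fewer peaks numbered 3 on 3L and 5 on 3R.

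The fullest window of the chromosome was the first megabase of 3R, at the centromere-side end of the arm sequence, with 17 peaks. Of these, 4 were at the fixed background and 4 belonged to groups of close neighbours, where the shares over all 3R peaks were 37.7% and 35.5%. It was followed by 3L 1000001 to 2000000 with 16 peaks, 3L 5000001 to 6000000 with 15, 3R 2000001 to 3000000 with 14 and, tied at 13, 3L 11000001 to 12000000 and 3R 4000001 to 5000000. In the 3R window from 2000001 the median score was 17.6, and 9 of its 14 lay in 4 groups. The 3L window from 5000001 held mostly narrow peaks, with a median of 274 bp, beside the broad 83.89 and 80.8 peaks described above.

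The emptiest windows included 1 with no peak at all, 3R 3000001 to 4000000. The next were 3L 23000001 to 24000000 with 1 peak, and 3L 2000001 to 3000000, 3L 14000001 to 15000000 and 3R 21000001 to 22000000 with 2 each. The longest stretches without a peak were 1120 kb at 3L 22855627 to 23975892, near the centromere-side end of the arm sequence, and 1078 kb at 3R 2933151 to 4011145. Further ones were 954 kb at 3R 21250912 to 22204739, 926 kb at 3R 1313520 to 2239571 and 902 kb at 3L 1932168 to 2834560. With no read numbers, these stretches were not shown to be unbound.

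The arms filled differently toward the centromere, which lies at the high-position end of 3L and X and at the low-position end of 3R. The heterochromatin scaffolds were left out, so the bins nearest to it are the ends of the arm sequence and not the centromere itself. The 10% of the extent nearest to it held 12 peaks on 3L, 4.91 per Mb, and 32 peaks on 3R, 11.6 per Mb. The 10% at the far end held 27 peaks on 3L (11.04 per Mb) and 24 on 3R (8.70 per Mb). The 50% of the extent on the centromere side held 88 of 198 peaks on 3L, 44.4% (37.4 to 51.7%), and 106 of 183 on 3R, 57.9% (50.4 to 65.2%). The difference was −13.5 percentage points (−23.1 to −3.43; Fisher's exact test, adjusted p = 0.0247). The call was lost in all 7 alternatives, for example with 1 peak per group of close neighbours (−11.2 points, adjusted p = 0.0894 in Fisher's exact test). In chromosome 3 as a whole the proximal 50% held 50.9% of peaks (45.8 to 56.0%), against 33.4% on X (28.5 to 38.6%), a difference of 17.5 points (10.4 to 24.3; Fisher's exact test, adjusted p = 6.99e-06). Among peaks not at the fixed background that difference was 15.6 points and did not pass (adjusted p = 0.184, Fisher's exact test).

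**Figure D3:**
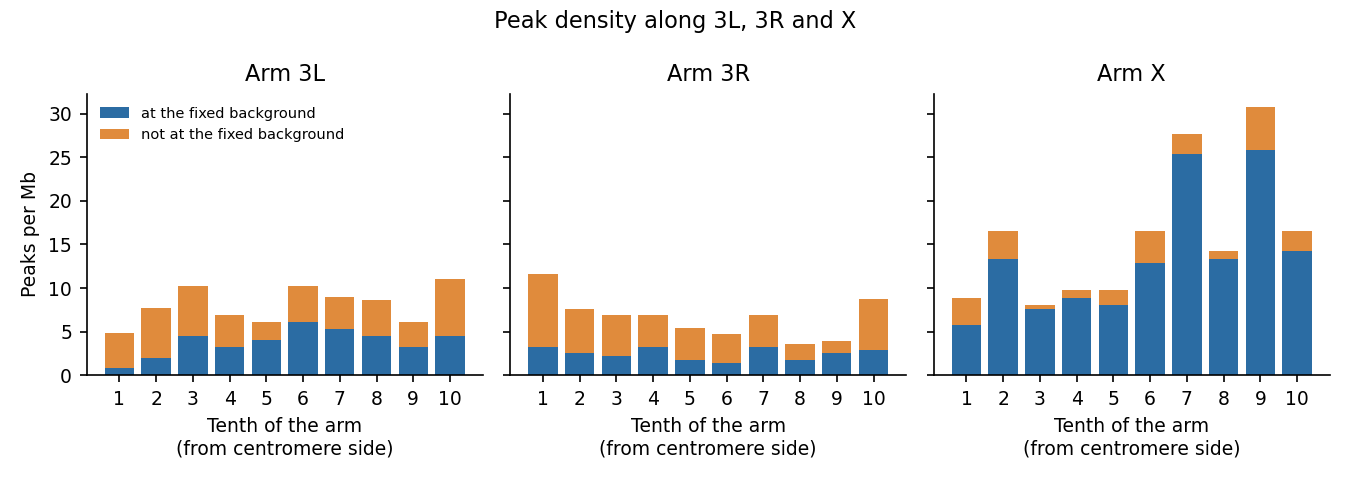
Peaks per Mb in 10 equal bins of 3L, 3R and X, numbered from the centromere side, with peaks at the fixed background in blue and the others stacked above in orange. On 3L the first bin is the lowest bar at 4.91, on 3R it is the highest at 11.6, and the X bars reach 30.8.

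Of the chromosome 3 peaks, 218 were not at the fixed background. With each arm cut into 3 bins, their share was highest in the bin on the centromere side, and the same held on X. By default MACS takes as expectation whichever is larger, the mean over the genome or the input nearby. The labels and headers state no settings, so whether these peaks lie over raised input was not tested. With each extent cut into 3 bins of 33.3%, 20 of 62 peaks on 3L (32.3%) and 23 of 75 on 3R (30.7%) were at the fixed background in the bin nearest to the centromere. In the middle bin the counts were 38 of 63 on 3L (60.3%) and 21 of 56 on 3R (37.5%), and in the far bin 36 of 73 on 3L (49.3%) and 25 of 52 on 3R (48.1%). On X the shares at it were 82.4% in the nearest bin, 83.9% in the middle bin and 88.1% in the far bin. In the 10% of 3L nearest to the centromere 2 of 12 peaks were at it. In that of 3R the share was 28.1%, close to the lowest of the other 10% bins of 3R, which ran from 30.8 to 63.6%. These shares along the arms were not tested.

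Over whole arms, 94 of 198 peaks on 3L (47.5%, 40.4 to 54.7%) and 69 of 183 on 3R (37.7%, 30.7 to 45.2%) were at the fixed background. The difference of 9.77 points (−0.17 to 19.4) did not pass Fisher's exact test (adjusted p = 0.107). With the match tightened to 0.005 the shares fell to 40.4% on 3L and 25.1% on 3R, so membership depends on the tolerance. The difference was then 15.3 points and passed (adjusted p = 0.00483, Fisher's exact test). How many scores match the series by chance was not estimated. At the 0.01 match the share over both arms was 42.8% (37.8 to 47.9%), against 85.4% on X (81.3 to 88.9%), a difference of −42.6 points (−48.5 to −36.2; Fisher's exact test, adjusted p = 6.62e-34). That contrast was already known from earlier results of these data, so its p-value is a description and not a fresh test. In widths and scores the kinds of peak overlapped widely. Chromosome 3 peaks not at the fixed background had a median width of 408 bp and a median score of 13.6, against 358 bp and 12.9 for those at it.

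Most neighbouring peaks on chromosome 3 were far apart. The median gap, counted as the bases between adjacent peaks, was 65797 bp on 3L and 76368 bp on 3R, against 22249 bp on X. Of 379 gaps on chromosome 3, 133 lay between 100 and 500 kb and 107 between 20 and 100 kb. A further 35 lay between 5 and 20 kb, 8 between 2 and 5 kb, and 77 were shorter than 2 kb.

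Gaps under 2 kb made up 43 of 197 on 3L, 21.8% (16.3 to 28.3%), and 34 of 182 on 3R, 18.7% (13.3 to 25.1%). The difference of 3.15 points (−5.01 to 11.2) did not pass Fisher's exact test (adjusted p = 0.628). Over both arms the share was 20.3% (16.4 to 24.7%), against 28.5% on X (23.8 to 33.5%), a difference of −8.13 points (−14.3 to −1.92; Fisher's exact test, adjusted p = 0.0247). X also has more peaks per Mb, and density and grouping cannot be told apart by this measure. It no longer passed after merging of peaks closer than 500 bp (7.93% against 10.9%, adjusted p = 0.285 in Fisher's exact test) or among scores at or above the median (adjusted p = 0.118, Fisher's exact test). Among peaks not at the fixed background it was 1.31 points. Merging removes the gaps under 500 bp, and leaving out peaks joins the gaps on either side, so these settings alter the measure itself.

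The shortest gap was 55 bp on 3L and 52 bp on 3R, and 18 gaps were under 100 bp. On X the shortest was 51 bp. Whether such adjacent peaks are separate sites of binding was not tested.

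**Figure D4:**
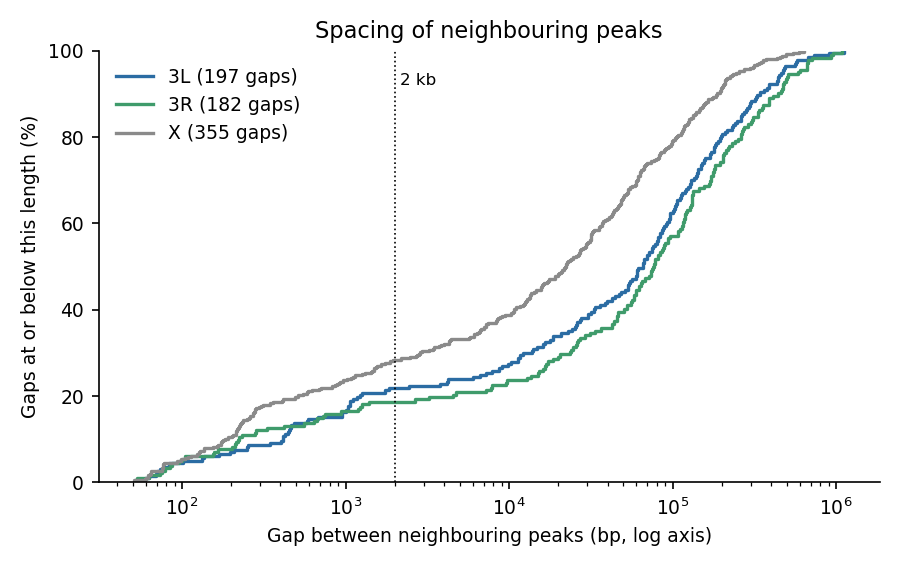
Cumulative share of gaps between neighbouring peaks at or below each length (bp, log axis) on 3L, 3R and X, with the 2 kb limit dotted. The 3L and 3R curves are nearly flat from 2 to 5 kb, rise steeply past 20 kb, and lie to the right of the X curve at longer lengths.

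Chaining peaks with gaps under 2 kb gave 65 groups of at least 2 peaks on chromosome 3, 34 on 3L and 31 on 3R. They took in 142 of the 381 peaks, 37.3% (32.4 to 42.3%), against 172 of 356 on the denser X, 48.3% (43.0 to 53.6%), a difference that was not tested. Nearly all were pairs: 55 held 2 peaks, 9 held 3 and 1 held 5. On X the 71 groups included 18 of 3 peaks, 4 of 4 and 1 of 6. The chromosome 3 groups spanned 654 to 4746 bp with a median of 1372 bp, and the longest was the group of 3 at 3L 5313200 to 5317945 that begins with the 80.8 peak. The other 239 peaks had no neighbour within 2 kb.

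Peaks in groups had a median score of 11.6 and a median width of 339.5 bp, against 13.7 and 409 bp for solitary peaks, a difference that was not tested. In 48 of the 65 groups the highest-scoring peak was also the widest, and within a group the highest and lowest score were a median of 5.66 apart. The best peak scored under 20 in 40 groups. By background, 16 groups held only peaks at the fixed background, 20 held none and 29 held both kinds, where 42.8% of all chromosome 3 peaks were at it.

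The group with the most peaks, at 3L 1105653 to 1110166, consisted of weak peaks throughout. Its 5 peaks scored 10.52, 11.05, 10.19, 11.17 and 8.94 in order of position, and the 3 at the fixed background stood at 2.05, 2.03 and 2.10-fold. Their widths were 623, 450, 201, 201 and 224 bp. No member stood out, and the highest score in it was below the chromosome's median of 12.87.

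Of the 9 groups of 3 peaks, the 4 that covered most bases are described next, and in 3 of these 1 peak scored well above the rest. The group at 3L 69636 to 74234, which holds the first peaks of the arm, scored 9.36, 18.36 and 47.75, and its last peak was 1555 bp wide at 3.70-fold. At 3R 5014958 to 5017769 a 2028 bp peak scoring 39.21 was followed 154 bp later by peaks scoring 11.5 and 9.38. At 3L 5532982 to 5536351 the 83.89 peak was followed by peaks of 10.52 and 14.31, at 2.05 and 2.28-fold against 4.86-fold for the main peak. The group at 3L 4095621 to 4098562 was of a different make, with adjoining peaks of 26.02 and 28.72 only 55 bp apart and another of 13.63. None of its 3 peaks was at the fixed background.

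In width and score no difference passed the test, either between the 2 arms or against X. Peaks of at least 1000 bp made up 11.1% on 3L (7.10 to 16.3%) and 16.9% on 3R (11.8 to 23.2%), a difference of −5.83 points (−12.9 to 1.16; Fisher's exact test, adjusted p = 0.158). Median widths were 347.5 bp on 3L and 419 bp on 3R. Chromosome 3 as a whole had 13.9% (10.6 to 17.8%), against 14.0% on X (10.6 to 18.1%), a difference of −0.13 points (−5.20 to 4.88; Fisher's exact test, adjusted p = 1.0). Its median width was 385 bp, against 416.5 bp on X.

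Scores of at least 20 were reached by 22.2% of peaks on 3L (16.6 to 28.7%) and 25.7% on 3R (19.5 to 32.6%). The difference of −3.46 points had an interval from −12.03 to 5.08 (Fisher's exact test, adjusted p = 0.628). The shares were 23.9% on chromosome 3 (19.7 to 28.5%) and 24.7% on X (20.3 to 29.5%), −0.83 points apart (−7.04 to 5.34; Fisher's exact test, adjusted p = 0.87). Median scores were 12.87 on 3L and 13.52 on 3R, with 13.23 on X. These intervals leave room for differences of several points in either direction.

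**Figure D5:**
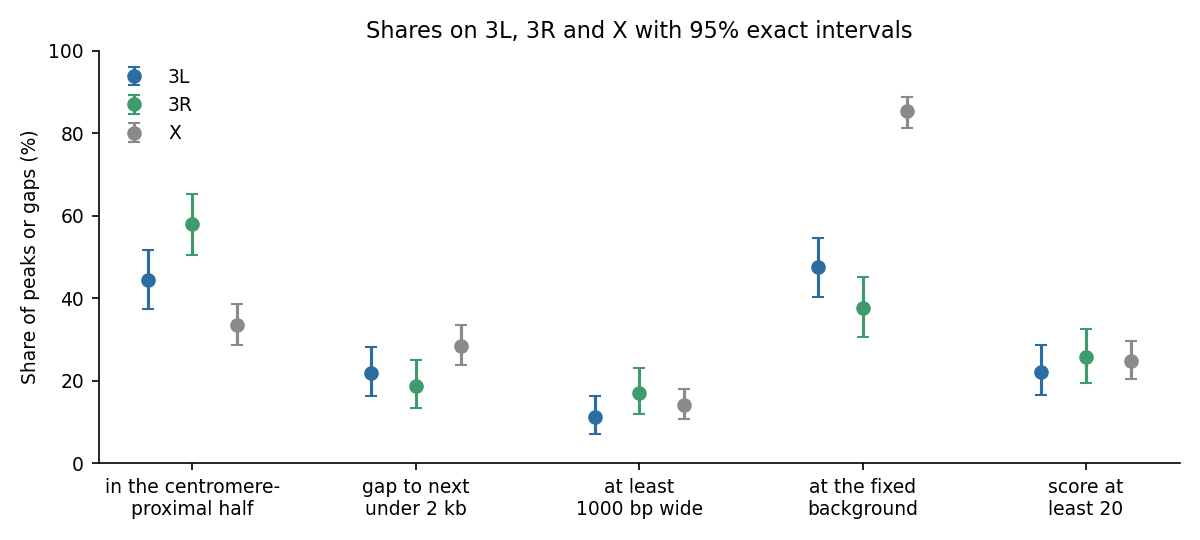
Share of peaks (or of gaps, for the second measure) on 3L, 3R and X that meet each of 5 criteria, as points with 95% Clopper-Pearson intervals. The 3L and 3R points lie far below X for the fixed background, at 47.5% and 37.7% against 85.4%, and near X for width and score.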

How the data were processed

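Chromatin from 2 immunoprecipitates and 2 inputs was sequenced. The authors called peaks with MACS and gave each a position in FlyBase release 5 and a score, read here as −log10 of a p-value, per the file headers and values. BDGP5, MACS2, BWA and CASAVA (1.7.0.3, 1.7.0.2) appear without roles in the submitters' processing notes. Pooling of libraries and the threshold are stated in no source used here. The score has no stated unit. It was read as −log10 of a p-value because 69.2% of the 5954 scores matched, within 0.01, −log10 of a Poisson tail probability at 1 mean, the best of those from 20 to 120 in steps of 0.05.

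The gene table belongs to release 6, includes sequence that release 5 keeps in heterochromatin scaffolds, and was used for gene numbers per arm alone. No coordinates were converted, so no gene is named and no sequence is shown. The peaks named are the 10 highest scores, the 5 groups with most peaks (ties by bases covered), the 5 widest peaks, the 5 longest gaps and the 5 fullest and 5 emptiest windows, with a tie for the fifth fullest. Members, lists and tests were chosen with earlier results of these data known, among them the X excess and the fixed background share of X.

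Python 3.11.15 and SciPy 1.17.1 gave exact binomial tests, Fisher's exact tests (both two-sided), Clopper-Pearson intervals and Newcombe intervals of differences. Of the 6 measures each was compared for 3L against 3R and for 3L with 3R against X, 12 tests in all. An arm's extent runs from position 1 to the end of its last peak. The tests were tried on simulated independent counts, and the search for the mean on simulated scores. Clustered peaks were not simulated, so those trials do not cover the dependence between neighbours.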

Additional observations from a re-analysis of the deposited data

Results flagged for a closer look

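The heterochromatin scaffolds of the chromosome, which no comparison above uses, also carried peaks. There were 8 on 3LHet and 6 on 3RHet. The 3LHet peaks had a median width of 399 bp and a median score of 17.7, up to 38.45, and 4 of them were at the fixed background. The 3RHet peaks had a median width of 242.5 bp and a median score of 9.59, and 4 were at the fixed background. The highest 3RHet score was 76.65, at positions 2308137 to 2308606. No control pull-down was available for these scaffolds, and their difference from the arms was not tested.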

How the results depend on the processing

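No paired analysis was possible because the files hold 1 list of peaks and no values by library, which also meant that leaving out a replicate was impossible. Of 15 alternatives, 3 were chosen after seeing the data. They were peaks at the fixed background, peaks not at it, and peaks outside the outer 1 Mb at both ends of each arm. Over 82 values, 58 kept their direction and their side of the threshold. The cause of the other changes was not tested. The 3L to 3R ratio of peaks per gene was 1.26 with 1 peak per group (adjusted p = 0.0874, exact test), 1.22 by extent, 1.31 after merging within 500 bp (adjusted p = 0.0518, exact test), 1.27 among scores at or above the median and 1.11 off the fixed background, and none of these passed. The 3L minus 3R difference of the proximal 50% lost its call in all 7: −11.2 with 1 peak per group and also without the outer 1 Mb, −11.5 merged, −15.9 at or above the median, −9.67 for the proximal 33.3%, −13.9 at and −11.4 off the fixed background. Off the fixed background, which leaves 52 peaks on X, the comparison of chromosome 3 with X gave a reversed 1.47 per gene, 15.6 points for the proximal 50% (not passing), a reversed 1.31 points for close neighbours and 2.50 for wide peaks. Close neighbours against X lost their call after merging (−2.95) and at or above the median (−6.71), settings that themselves remove or join short gaps. Without any call before or after, signs turned for 3L against 3R with a 1 kb gap limit (−0.24) and for high scores at the fixed background (1.08), and against X for scores of 30 (3.18), for high scores without the outer 1 Mb (0.31) and for wide peaks at or above the median (1.56). The fixed background share of 3L against 3R gained a call at a tolerance of 0.005 (15.3).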

Other observations

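The values in this part were picked after they had been seen, and nothing in it was tested. Narrow peaks with high scores occurred on 3R and not on 3L. Peaks under 500 bp that scored 40 or more numbered 0 on 3L and 3 on 3R, against 1 on X. They lay at 3R 627735 to 628209 (475 bp, score 54.14), 2690753 to 2691094 (342 bp, 49.12) and 8331459 to 8331826 (368 bp, 43.38). None of the 3 was at the fixed background, where 37.7% of all 3R peaks were.

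With neighbours allowed up to 20 kb apart, runs of 5 or more peaks numbered 2 on 3L and 1 on 3R, against 14 on X, and held 5.56% and 2.73% of the arms' peaks, against 23.9%. X also has more peaks per Mb, and density and the number of runs cannot be told apart here. The run at 3L 7978939 to 8017008 stood out in strength, since its 5 peaks had a median score of 35.0. The run of 6 peaks at 3L 1091618 to 1110166 had a median of 10.8. The 3R run, at 27451664 to 27475003, lay at the far end of that arm and held the 52.85 peak.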
